A study of Rattus norvegicus with 18 samples.

Results

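By the sample labels, some kidney transcripts changed sides between 2 related hypertensive rat strains from 3 to 6 weeks of age: a transcript less abundant in SHRSP at 3 weeks of age was the more abundant one at 6 weeks, or the other way round. They were chosen by the measured values themselves, as probes whose mean signals in SHRSP and SHRs differed by more than 1 on the log2 scale (2-fold) at both ages, with opposite signs. Of 20289 probes past the filter on dim signals, 107 met this rule (0.527%). After 11 probes of 9 genes that the rule leaves out, 96 probes remained, which stand for 88 genes or unnamed transcripts out of 26512 on the array. Because these values chose the members, their differences between SHRSP and SHRs are a description and carry no test.

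RNA from kidneys was hybridized to 18 Agilent 4x44K rat arrays in 1 colour, each array carrying 1 biological replicate. The strains were WKY, the normotensive control, the spontaneously hypertensive rat (SHRs) and its stroke-prone substrain (SHRSP), taken when 3 or 6 weeks old, with no treatment given for any group. Each of the 6 groups held 3 arrays, and so few arrays limit how precise any value can be. The labels speak of kidneys of each strain and do not say whether animals were pooled.

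An array probe is a short strand of DNA that captures the RNA whose bases pair with it, so its signal depends on how much of that RNA is present and on how well the bases match. SHRs were bred from Wistar rats of Kyoto for high blood pressure, and SHRSP were bred from SHRs for early death from stroke, so most of their genomes have the same origin. In both, blood pressure rises during growth, and the kidney takes part in setting it through salt and water excretion and the renin-angiotensin system.

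Every signal is given here as the log2 of the processed intensity minus that array's log2 75th percentile, taken over spots well above background. A value of 0 therefore stands at that percentile, and a value of -9 lies close to the background. Spots well above background made up 70.8% to 76.9% of each array, and saturation was marked for 0 spots. To enter the rule a probe had to be well above background throughout 1 or more of the 4 groups, and 47 of the 96 probes were well above background on all 18 arrays. For 36 at least 1 of the 4 groups had no array well above background. The rule itself makes the members differ between the strains, so how many do so is not a finding. With a background correction that raises dim signals (normexp) 38 probes met the rule, and when each of the 4 groups had to be well above background 47 did. Where a group had no array well above background the fold is a lower bound: the mean of the bright group was set against the dim group's mean after every value in it had been lifted to the dimmest spot of that array that still stood well above background. Where only some arrays of a group were dim, the fold is given as measured.

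The kidney label was checked against marker genes of the organ. Umod, Slc12a1, Slc12a3, Aqp2, Slc34a1, Lrp2, Nphs1 and Cdh16, which mark segments of the nephron and the glomerulus, were well above background on all 18 arrays. Cyp4a2, a fatty acid hydroxylase, was picked after its values were seen because they separate the ages, so it is no independent check of the age labels. It read -2.78 ± 0.63 at 3 weeks and 5.85 ± 0.14 at 6 weeks in WKY rats (SD, n = 3), 0.86 ± 0.11 and 5.89 ± 0.04 in SHRs, and 1.25 ± 0.07 and 5.84 ± 0.07 in SHRSP. No measure known beforehand to tell SHRs from SHRSP was available, and every array stayed in its labelled group. The levels given next put the arrays labelled SHR at 3 weeks close to those labelled SHRSP at 6 weeks, and the arrays labelled SHRSP at 3 weeks close to those labelled SHR at 6 weeks for most members. Exchanged SHR and SHRSP labels at 1 age would give such levels too, and this was not tested. Of the 20289 probes, the arrays of the strains were apart at both ages in opposite order for 1347 (6.64%) and in the same order for 477 (2.35%). How many would be apart by chance was not tested, and nothing about the labels is read from these counts.

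A family of transcripts alike in name or probe sequence made up 27 of the 96 probes. These probes carry names such as similar to Discs large homolog 5 or LOC301748 protein, or share a run of at least 20 bases with one that does. Discs large proteins are scaffolds that hold cell junctions and signalling proteins together, and the function of these rat copies is not given in the files. Some probes of the family that are not members are described as similar to spermatogenesis associated glutamate (E)-rich protein 4d. The 4 probes printed here show how alike the copies are, with 60 bases each in the 5′ to 3′ direction. Capitals mark the longest run that each probe has in common with the unnamed probe on chromosome 9, and for that probe the run in common with LOC301193. Positions follow the rn4 assembly, which the array annotation uses. The LOC301193 probe lies at chr14:49143924-49143983, the unnamed probe at chr9:5489437-5489496, the LOC501224 probe on sequence not placed on a chromosome, and the MGC116197-like probe at chr9:5886995-5887054.
LOC301193: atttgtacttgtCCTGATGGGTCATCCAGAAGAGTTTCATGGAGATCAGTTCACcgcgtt
unnamed probe: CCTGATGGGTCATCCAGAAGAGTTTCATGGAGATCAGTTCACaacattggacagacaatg
LOC501224: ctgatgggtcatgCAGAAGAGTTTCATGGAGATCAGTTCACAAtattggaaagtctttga
MGC116197-like: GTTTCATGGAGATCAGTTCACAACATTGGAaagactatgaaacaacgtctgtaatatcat

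The LOC301193 and unnamed probes, placed on chromosomes 14 and 9, had 42 bases in a row in common. The LOC501224 and MGC116197-like probes each had 30 in a row in common with the unnamed probe. One RNA could bind several of these probes, which was not measured. The copies therefore cannot be told apart with certainty, their positions are uncertain, and the 27 probes cannot be counted as 27 separate genes.

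At 3 weeks the LOC301193 probe read -1.41, -1.68 and -1.74 in WKY rats, -1.85, -1.99 and -2.02 in SHRs and -3.91, -3.68 and -3.71 in SHRSP. At 6 weeks the same probe read -1.54, -1.54 and -1.39 in WKY rats, -3.55, -3.60 and -3.37 in SHRs and -1.33, -1.54 and -1.57 in SHRSP. The low arrays were those of SHRSP at 3 weeks and of SHRs at 6 weeks, and neither group overlapped with the other strain of its age or with WKY rats. The LOC501224 probe read -3.10, -3.32 and -3.35 in SHRs and -4.88, -4.85 and -4.77 in SHRSP at 3 weeks. At 6 weeks it read -4.82, -4.64 and -4.57 in SHRs and -2.59, -2.83 and -2.90 in SHRSP. Its low and high groups were those of the LOC301193 probe, again without overlap.

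Over the 27 family probes, SHRSP minus SHR had a median of -1.57 at 3 weeks and of 1.91 at 6 weeks. Each of the 27 was lower in SHRSP at 3 weeks. Against WKY rats the median at 3 weeks was -0.27 in SHRs and -1.90 in SHRSP. At 6 weeks it was -1.99 in SHRs and -0.02 in SHRSP. The array holds 87 probes of the family, of which 52 passed the filter. Among the 25 that passed and are not members, 11 were also lower in SHRSP at 3 weeks and higher at 6 weeks. These were counted by sign alone, and they include small differences such as -0.17 and 0.04. The rest of the 25 did not turn this way, among them Spetex2f (-3.54 at 3 weeks and -0.41 at 6 weeks). Of the 27 members, 13 lie on sequence not placed on a chromosome, 7 on chromosome 14, 6 on chromosome 9 and 1 on chromosome 4. The family was noticed after the values had been seen. Without it 69 probes remained, 30 of them lower in SHRSP at 3 weeks and 39 higher.

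**Figure D1:**
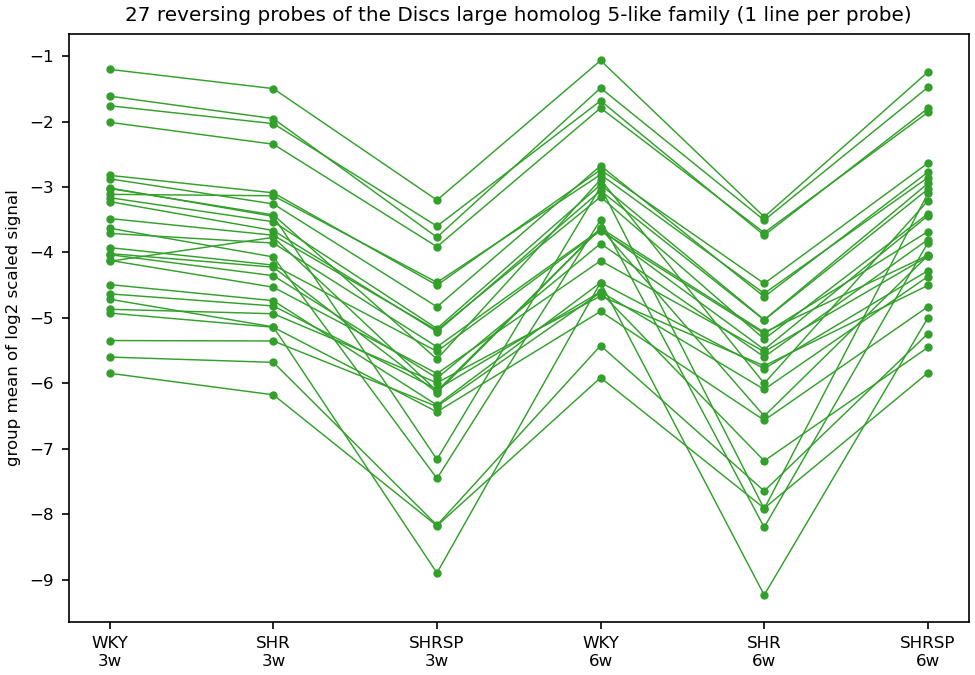
Group means of the log2 scaled signal (vertical axis) of the 27 reversing probes of the Discs large homolog 5-like family in the 6 groups of 3 arrays (horizontal axis), with 1 line per probe. The lines dip at SHRSP of 3 weeks and at SHRs of 6 weeks, where the median difference from WKY rats was -1.90 and -1.99.

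Outside this family, the 6 named genes with the largest reversal in each direction are given with every array. In the first set, lower in SHRSP at 3 weeks and higher at 6 weeks, stood Hba-a3, Haghl, Prp2l1, Lilrb3l, Micb and Tdh. Genes were ranked by the smaller of the 2 differences as measured. The order therefore rests in part on signals near the background, where the folds are only bounds.

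Hba-a3 encodes an alpha chain of haemoglobin, the oxygen carrier of red cells. At 3 weeks its probe (chr10:15559461-15559520) read -1.91, -1.79 and -3.33 in WKY rats, -2.12, -2.77 and -2.35 in SHRs and -9.09, -8.66 and -9.22 in SHRSP. At 6 weeks it read -2.75, -3.33 and -3.04 in WKY rats, -9.09, -9.14 and -8.84 in SHRs and -2.71, -3.48 and -3.94 in SHRSP. The SHRSP arrays at 3 weeks and the SHR arrays at 6 weeks lay near the background, far below all others. Group means at 3 weeks were -2.42 ± 0.33 in SHRs and -8.99 ± 0.29 in SHRSP (SD, n = 3), which made Hba-a3 at least 25.2-fold lower in SHRSP. At 6 weeks Hba-a3 was at least 11.9-fold higher in SHRSP. Other red cell transcripts did not share this pattern. SHRSP minus SHR was -0.28 at 3 weeks and -0.31 at 6 weeks for Hbb, the beta chain. It was -0.09 and -0.17 for Hba-a1, the main alpha chain, and -0.15 and -0.36 for Alas2, the first enzyme of haem synthesis in red cells.

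Haghl is named for its likeness to glyoxalase 2, the enzyme that frees lactate and glutathione at the end of methylglyoxal detoxification. Haghl (chr10:15051356-15051602) read -4.35, -4.53 and -4.94 in WKY rats, -4.92, -4.72 and -4.50 in SHRs and -9.22, -7.94 and -9.33 in SHRSP at 3 weeks. At 6 weeks the Haghl probe read -4.85, -5.02 and -4.94 in WKY rats, -9.01, -8.11 and -9.27 in SHRs and -4.96, -4.87 and -4.82 in SHRSP. WKY rats, SHRs at 3 weeks and SHRSP at 6 weeks lay in a narrow high band, and no array of the other 2 groups was well above background. In SHRSP, Haghl was lower by at least 5.11-fold at the younger age, and at the older age it was higher by at least 4.21-fold. Glo1 and Hagh, the enzymes of the glyoxalase pathway itself, showed differences of -0.13 and 0.03 (Glo1) and 0.13 and 0.06 (Hagh) at the 2 ages. Haghl was the only gene with a reversing probe among the 17 genes of the glyoxalase and glutathione list.

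Prp2l1 belongs to the proline-rich proteins, a family known from saliva. In WKY rats its probe (chr10:92705889-92705948) read -6.52, -6.41 and -6.53 at 3 weeks, in SHRs -3.39, -3.30 and -3.49 and in SHRSP -6.62, -6.06 and -6.66. The values at 6 weeks were -6.45, -6.15 and -6.33 in WKY rats, -6.93, -6.78 and -6.62 in SHRs and -3.19, -2.97 and -3.08 in SHRSP. Here the pattern against WKY rats was the mirror image of that of Haghl: SHRs at 3 weeks and SHRSP at 6 weeks stood above WKY rats, and the other groups lay near them. Prp2l1 was 8.3-fold lower in SHRSP at 3 weeks and 13-fold higher at 6 weeks.

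Lilrb3l is named in the files as a leukocyte immunoglobulin-like receptor, a family of cell surface receptors that restrain white blood cells. Lilrb3l (chr1:63735506-63735565) read -7.74, -7.76 and -9.17 in WKY rats, -5.32, -5.62 and -5.86 in SHRs and -8.80, -8.03 and -8.59 in SHRSP at 3 weeks. At 6 weeks Lilrb3l read -7.22, -8.22 and -6.89 in WKY rats, -8.16, -8.17 and -7.48 in SHRs and -5.22, -5.39 and -5.27 in SHRSP. SHRs at 3 weeks and SHRSP at 6 weeks were the only groups of the 6 with any array well above background. The fold between the strains for Lilrb3l was at least 2.77-fold at 3 weeks, with SHRSP lower, and at least 3.16-fold at 6 weeks, with SHRSP higher.

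Micb, called Mill2 in the files, encodes a relative of the MHC class I molecules that present antigens. The Micb probe (chr1:78216455-78216514) read -5.62, -5.44 and -5.17 in WKY rats, -5.42, -5.61 and -5.58 in SHRs and -8.47, -7.14 and -8.39 in SHRSP at 3 weeks. At 6 weeks Micb read -5.76, -5.43 and -5.38 in WKY rats, -8.83, -7.58 and -8.33 in SHRs and -5.97, -5.94 and -5.83 in SHRSP. As with Haghl, the 2 low groups had no array well above background. The fold between the strains for Micb was at least 2.85-fold at 3 weeks, with SHRSP lower, and at least 2.05-fold at 6 weeks, with SHRSP higher.

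Tdh, threonine dehydrogenase, breaks down threonine in mitochondria. Its probe (chr15:42758744-42759715) read -5.50, -5.73 and -5.65 in WKY rats, -5.40, -5.43 and -5.29 in SHRs and -7.84, -7.00 and -7.47 in SHRSP at 3 weeks. At 6 weeks Tdh read -5.70, -5.48 and -5.48 in WKY rats, -7.82, -8.04 and -8.22 in SHRs and -5.87, -5.92 and -5.72 in SHRSP. SHRSP at 3 weeks, with 1 array of 3 well above background, and SHRs at 6 weeks, with 0, were the low groups. In SHRSP, Tdh was lower by 2.06 on the log2 scale as measured at the younger age and by 1.63 with dim values lifted, and SHRSP exceeded SHRs by at least 2.16-fold at the older.

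In the second set, higher in SHRSP at 3 weeks and lower at 6 weeks, stood Zfp597, Serhl2, Zbtb16, Lbp, Mettl2 and Cxcl17. Zfp597 encodes a zinc finger protein, a class that binds DNA. At 3 weeks Zfp597 (chr10:11926184-11926243) read -6.37, -6.24 and -5.98 in WKY rats, -5.86, -6.42 and -6.05 in SHRs and -3.54, -3.50 and -3.38 in SHRSP. At 6 weeks Zfp597 read -5.90, -5.87 and -5.73 in WKY rats, -3.30, -3.33 and -3.20 in SHRs and -5.86, -6.08 and -5.85 in SHRSP. SHRSP at 3 weeks and SHRs at 6 weeks were high on all 3 arrays, and the other 4 groups lay together well below them. Zfp597 was 6.21-fold higher in SHRSP at 3 weeks and 6.29-fold lower at 6 weeks.

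Serhl2 encodes a serine hydrolase-like protein. At 3 weeks Serhl2 (chr7:121146515-121146574) read -0.04, -0.19 and -0.33 in WKY rats, -2.95, -3.09 and -2.79 in SHRs and -0.40, -0.79 and -0.62 in SHRSP. At 6 weeks Serhl2 read -0.25, -0.35 and -0.37 in WKY rats, -0.17, -0.21 and -0.18 in SHRs and -2.87, -2.99 and -3.03 in SHRSP. All 18 arrays were well above background, and the 3 SHR arrays at 3 weeks and the 3 SHRSP arrays at 6 weeks formed the low set. Group means at 3 weeks were -2.94 ± 0.15 in SHRs and -0.60 ± 0.20 in SHRSP (SD, n = 3), so Serhl2 was 5.06-fold higher in SHRSP. At 6 weeks they were -0.19 ± 0.02 and -2.96 ± 0.08 (SD, n = 3), and Serhl2 was 6.84-fold lower in SHRSP.

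Zbtb16, a zinc finger repressor of transcription that glucocorticoids are known to induce, differed from the genes above in its levels. Zbtb16 (chr8:51934505-51934564) read -6.65, -7.02 and -8.77 in WKY rats, -5.17, -5.27 and -4.35 in SHRs and -3.32, -2.64 and -2.84 in SHRSP at 3 weeks. At 6 weeks Zbtb16 read -9.12, -7.26 and -7.98 in WKY rats, -4.91, -4.46 and -4.53 in SHRs and -7.81, -7.24 and -7.16 in SHRSP. Both hypertensive strains stood above WKY rats at 3 weeks, SHRSP the higher, and at 6 weeks only the SHR arrays were well above background. Zbtb16 was 3.99-fold higher in SHRSP at 3 weeks and at least 4.39-fold lower at 6 weeks. The SHR arrays at 3 weeks were all well above background and the SHRSP arrays at 6 weeks were not, so these groups were not alike for Zbtb16. Fibin, a secreted signal named for fin bud initiation and chosen here after its values were seen, had the same order of groups as Zbtb16.

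Lbp encodes the lipopolysaccharide binding protein, which hands bacterial lipopolysaccharide to immune receptors. Its probe (chr3:149043196-149043255) read -6.39, -6.33 and -6.33 in WKY rats, -6.51, -6.39 and -6.36 in SHRs and -4.77, -4.34 and -4.45 in SHRSP at 3 weeks. At 6 weeks Lbp read -6.99, -6.99 and -6.81 in WKY rats, -5.14, -5.16 and -5.36 in SHRs and -6.72, -7.83 and -6.88 in SHRSP. The high arrays were those of SHRSP at 3 weeks and SHRs at 6 weeks, with no overlap. Lbp was 3.74-fold higher in SHRSP at 3 weeks and at least 2.8-fold lower at 6 weeks.

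Mettl2 encodes a methyltransferase that modifies transfer RNA. Mettl2 (chr10:94536396-94536455) read -4.31, -4.38 and -4.18 in WKY rats, -4.32, -4.04 and -4.44 in SHRs and -2.45, -1.85 and -2.18 in SHRSP at 3 weeks. At 6 weeks Mettl2 read -4.32, -4.16 and -4.09 in WKY rats, -2.52, -2.44 and -2.54 in SHRs and -4.43, -4.39 and -4.36 in SHRSP. Its 18 arrays were all well above background and fell into a high and a low set, as for Zfp597. Mettl2 was 4.31-fold higher in SHRSP at 3 weeks and 3.71-fold lower at 6 weeks.

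Cxcl17 encodes a chemokine of mucosal tissues that draws in myeloid cells. The probe of Cxcl17 (chr1:80683134-80683193) read -9.16, -7.89 and -6.72 in WKY rats, -7.18, -7.09 and -7.21 in SHRs and -5.37, -4.81 and -5.70 in SHRSP at 3 weeks. At 6 weeks Cxcl17 read -7.67, -6.51 and -6.75 in WKY rats, -6.24, -6.03 and -6.22 in SHRs and -7.90, -7.32 and -8.95 in SHRSP. WKY arrays were spread widely, and SHRs at 3 weeks and SHRSP at 6 weeks had no array well above background. Cxcl17 was at least 2.95-fold higher in SHRSP at 3 weeks and at least 1.52-fold lower at 6 weeks.

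**Figure D2:**
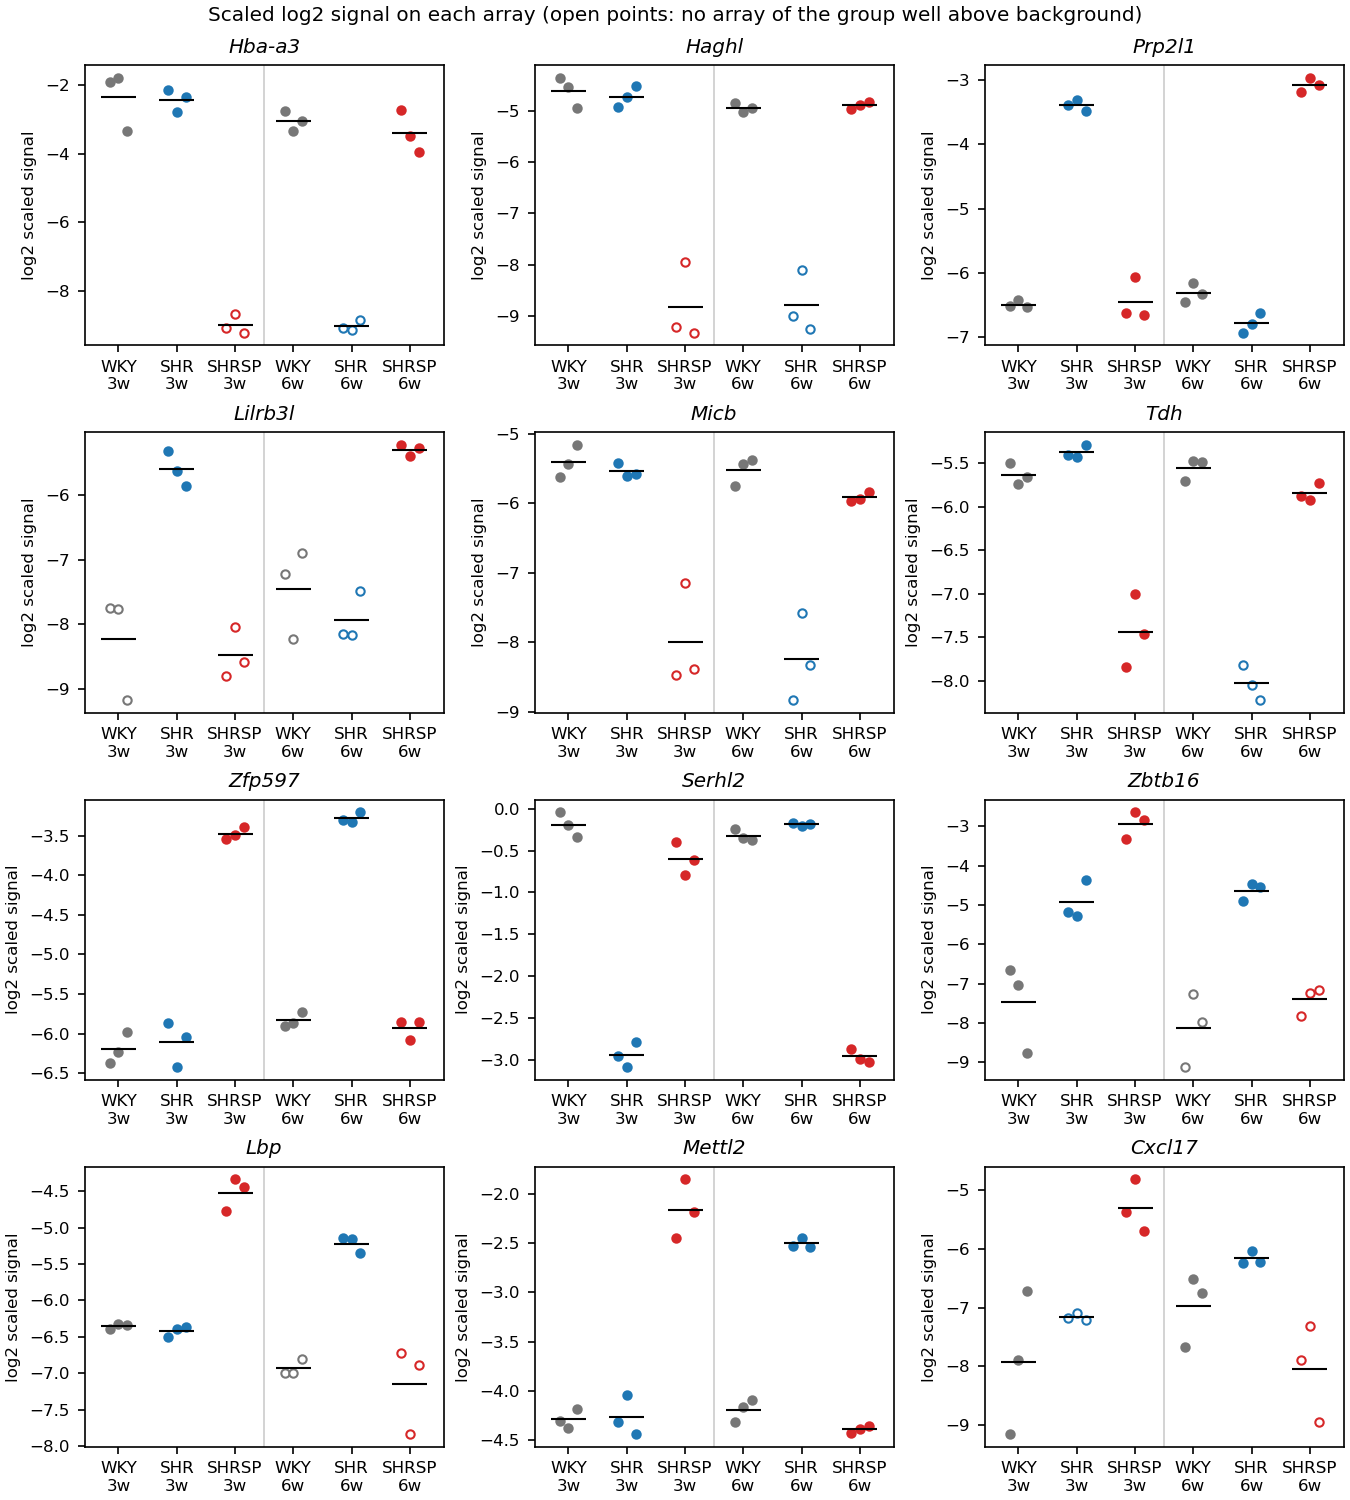
Log2 scaled signal (vertical axes) of the 12 described genes on each of the 18 arrays, by strain and age, with a line at each group mean and open points where no array of a group was well above background. Hba-a3 and Haghl are low in SHRSP of 3 weeks and SHRs of 6 weeks, Zfp597 and Mettl2 are high in those groups, and Zbtb16 shows a different order.

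A large reversal also belonged to a probe without a gene symbol, which the files describe as similar to Zinc finger protein 45. It was chosen for mention after its values were seen. This probe read -8.00, -7.64 and -7.11 in SHRs and -2.11, -1.73 and -2.06 in SHRSP at 3 weeks, and -2.53, -2.55 and -2.54 in SHRs and -7.67, -8.69 and -8.61 in SHRSP at 6 weeks. It was at least 29.4-fold higher in SHRSP at 3 weeks and at least 18.8-fold lower at 6 weeks.

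The other named members fall into several roles. Among genes lower in SHRSP at 3 weeks, Ryr1, dim in both strains at that age so that its direction there is not established, is the calcium release channel of skeletal muscle, Casq2 a calcium store protein of heart muscle, Sgca a part of the dystrophin complex and Acyp2 an acylphosphatase. Muscle genes as a group were not tested, and Tnnt1, Acta1 and Ckm were higher in SHRSP at 3 weeks, Ckm near the background. The difference of Acta1 was 0.88, within the limit of 1, and 1 of its 3 SHR arrays at that age was well above background. Hao1 is the glycolate oxidase of peroxisomes, Klk1c10 a tissue kallikrein that cleaves kininogen, and Scara3 a scavenger receptor. Bpi kills bacteria by binding lipopolysaccharide, Stk32c is a protein kinase, Pmfbp1 is known from sperm, and Zfp14 and Phf11b carry zinc-binding fingers. MGC116197 belongs to the multi-copy family described above.

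Among genes higher in SHRSP at 3 weeks, Hes1 is a repressor switched on by Notch signalling, Nfe2l3 a basic leucine zipper factor, and Rgs11 a brake on G-protein signalling. Irs3 relays insulin signals, Tas1r1 is a subunit of the umami taste receptor, and F2 is prothrombin, the precursor of the clotting enzyme. Abcb10 and Abca5 are membrane transporters, Pxmp4 is a peroxisomal membrane protein, Ppic a cyclophilin that helps proteins fold, and Gemin7 a part of the complex that assembles splicing particles. Upp2 breaks down uridine, Slc35c2 is a sugar transporter of the Golgi, Eef2kmt methylates a translation factor, and Rai2 is named for its induction by retinoic acid. Bbs1 belongs to the Bardet-Biedl complex of the primary cilium, Spata46 is known from sperm, and Tnnt1 is the slow skeletal troponin T. The values of Abca5 and Stk32c moved widely with single arrays. Leaving out 1 array moved Abca5 from 1.15 to 0.54 at 3 weeks (without SHR replicate 1) and from -1.21 to -0.17 at 6 weeks (without SHR replicate 2). Abca5 was 0.63 at 3 weeks without SHRSP replicate 1, 2.03 without SHR replicate 3 and 1.81 without SHRSP replicate 2. At 6 weeks Abca5 was -0.68 without SHRSP replicate 2 and -1.97 without SHR replicate 3. Stk32c at 6 weeks, 1.56, was 0.73, 3.08 and 0.87 without SHR replicates 1, 2 and 3. Irs3 at 3 weeks, 1.18, was 0.78 without SHR replicate 1. The difference of Irs3 at 6 weeks, -1.30, was not kept with 2 other treatments of dim signals: it was 0.053 with normexp and 0.18 with dim values lifted in the way described for the bounds. With 1 array left out, other named members also fell within the limit of 1. At 3 weeks the smallest differences were -0.79 for Phf11b, 0.79 for Fetub, 0.81 for Fibin, 0.86 for Upp2 and 0.87 for Rai2. They were -0.90 for Klk1c10, -0.93 for Sgca, and 0.96 for Banp, Slc35c2 and Eef2kmt. At 6 weeks they were 0.92 for Klk1c10 and 0.98 for Scara3.

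At the edge of the rule, the 3 probes just inside were a family probe (just beyond the limit at 3 weeks, 1.73 at 6 weeks), an unnamed transcript on chromosome 3 (1.23 and -1.01) and Klk1c10 (-1.01 and 1.08). Just outside were Tgfb2, a growth factor of fibrosis (0.99 and -0.99), Crygs, a lens crystallin (0.98 and -1.41), and a further unnamed probe (-0.98 and 1.57). With a limit of 2 in place of 1, 25 members met the rule.

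Probes that kept their sign were few. Beyond 1 at both ages with the same sign stood 7 probes (0.0345% of those past the filter), which stand for 5 genes. These were Ccn2, a matrix protein of fibrosis, Ccl20, a chemokine with 2 probes, Bmal1, a core clock factor with 2 probes, and Depp1 and Ddit4, a pair of stress response genes. For Ccn2, SHRSP minus SHR was -1.17 at 3 weeks and -1.52 at 6 weeks. Ccl20 was higher in SHRSP at both ages, by 1.26 and 1.39 on its first probe. The first probe of Bmal1 differed by -1.04 and -1.06. This count was small and moved with the setting: it was 2 with normexp, 31 with no filter on dim signals, and 11 without SHR replicate 3 or SHRSP replicate 1 at 3 weeks, or without SHRSP replicate 2 at 6 weeks.

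Across all 20289 probes past the filter, SHRSP minus SHR at 3 weeks correlated with the same difference at 6 weeks with r = -0.39, and across the 20182 probes other than the 107 with r = -0.12. With each replicate left out in turn these correlations ran from -0.44 to -0.30 and from -0.18 to -0.07. With no filter on dim signals the first was -0.23. Genes are not independent replicates, and the probes share arrays, so no p is given. Among the probes that do not meet the rule and are not of the genes left out, 212 differed by more than 0.5 at both ages with opposite signs and 87 with the same sign.

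**Figure D3:**
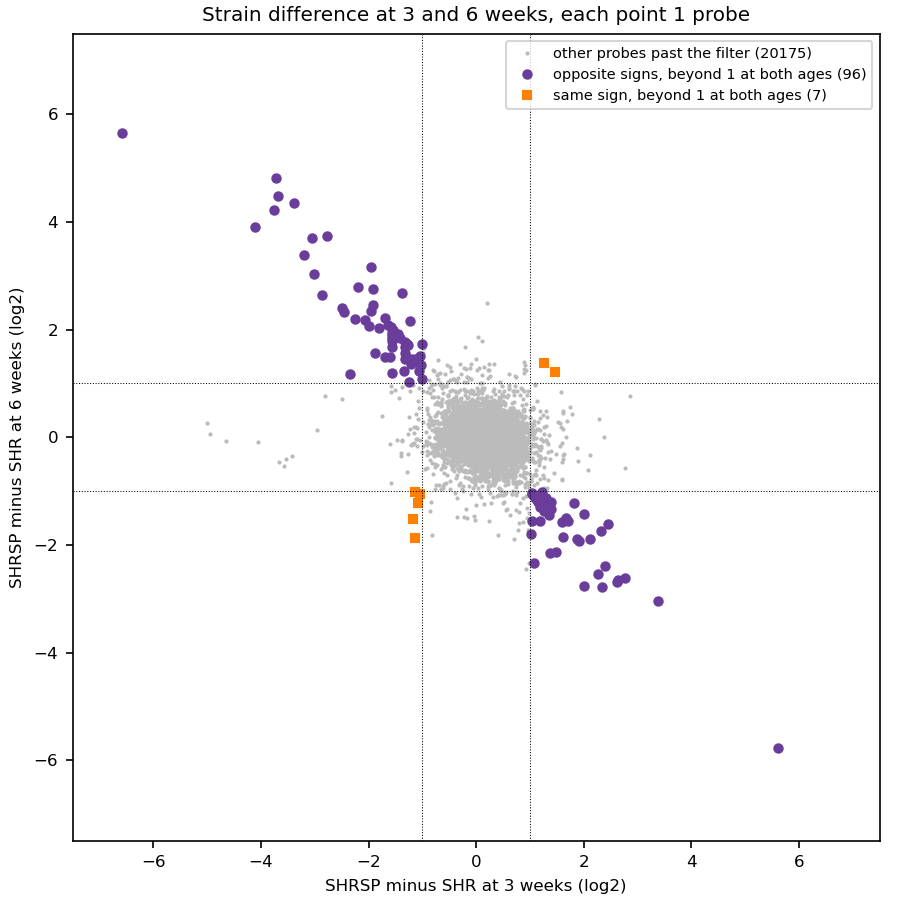
SHRSP minus SHR on the log2 scale at 3 weeks (horizontal axis) and 6 weeks (vertical axis), with each point a probe, dotted lines at the limits of 1 and -1, 96 members as purple circles and 7 probes of the same sign as orange squares. The members run from the upper left to the lower right, and the remaining probes cluster around 0, some with a large difference at 3 weeks alone; the 11 probes of the genes left out are not drawn.

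The levels in WKY rats, which the rule did not use, show which strain moved away from the control at each age. Of the 96 members, 74 had exactly 1 of the 2 strains beyond 1 from WKY rats at each age. In 72 of the 74 it was the other strain at the other age and the same way: SHRSP at 3 weeks and SHRs at 6 weeks for 57 probes (41 down, 16 up), and SHRs at 3 weeks and SHRSP at 6 weeks for 15 (9 up, 6 down). All 27 probes of the multi-copy family were among the 41, and they cannot be counted as separate genes. Hba-a3, Haghl, Micb and Tdh were among the 41, Zfp597, Lbp and Mettl2 among the 16, Prp2l1 and Lilrb3l among the 9, and Serhl2 among the 6. Cxcl17 and Banp, a nuclear matrix protein named here because the count is small, were the 2 exceptions, with SHRSP beyond 1 from WKY rats at both ages. For Cxcl17 this rests on SHRSP values at 6 weeks that were not well above background, so its direction against WKY rats at that age is not established. The other 22 probes, among them Zbtb16, Ryr1, F2 and Hao1, had no strain or both strains beyond 1 from WKY rats at 1 age or more. By the rule the strains must differ at both ages with opposite signs, so part of this pattern follows from the choice. For the 74 only 2 outcomes were possible: the other strain the same way, or the same strain the opposite way. Once the strain differs, the same way is therefore fixed by the rule. The split of the 74 between the 2 outcomes was not tested.

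**Figure D4:**
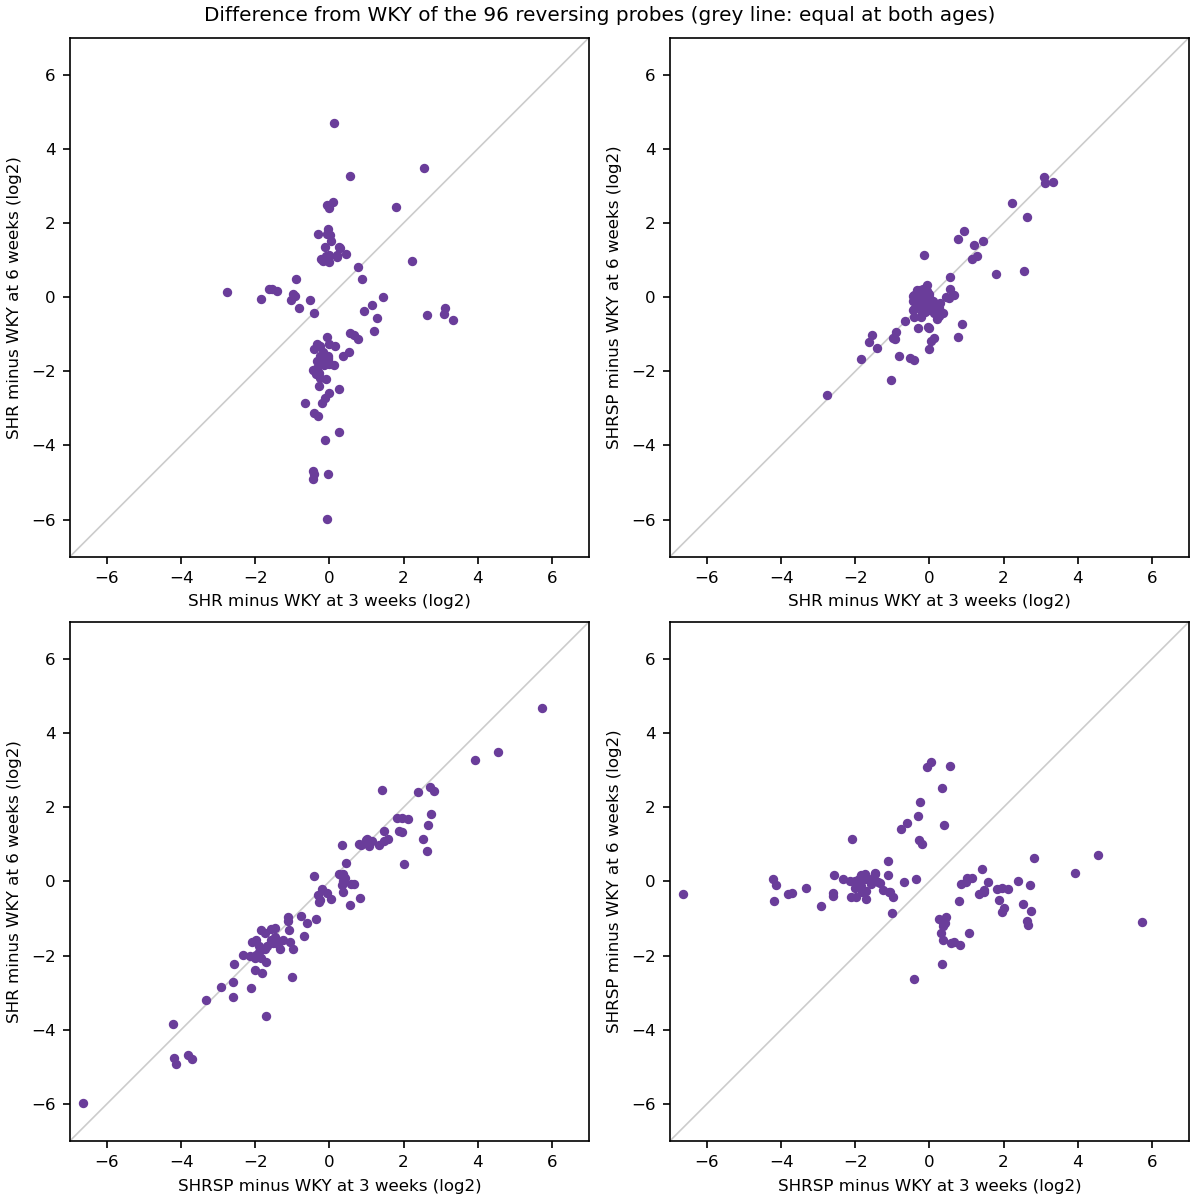
Difference from WKY rats on the log2 scale for the 96 members at 3 weeks (horizontal axes) and 6 weeks (vertical axes), for each pair of SHR and SHRSP labels, with a grey line where both are equal. Points follow the line where SHRs of 3 weeks meet SHRSP of 6 weeks and where SHRSP of 3 weeks meet SHRs of 6 weeks, and they spread along the axes where the label is the same.

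The members' median absolute difference was 1.59 between SHRSP and SHRs at 3 weeks and 1.84 at 6 weeks, as the rule required. Between SHRSP of 6 weeks and SHRs of 3 weeks it was 0.31, with 9 members beyond 1, and between SHRs of 6 weeks and SHRSP of 3 weeks 0.32, with 5 beyond 1. In WKY rats, between 6 and 3 weeks, it was 0.28, with 4 beyond 1. For the 20182 probes that do not meet the rule these medians were 0.20, 0.30 and 0.22. Within a label, from 3 to 6 weeks, the members' median was 1.60 in SHRs and 1.99 in SHRSP, against 0.22 and 0.30 for the other probes. Large changes within a label follow from the rule, since opposite differences beyond 1 require at least 1 strain to change by more than 1.

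**Figure D5:**
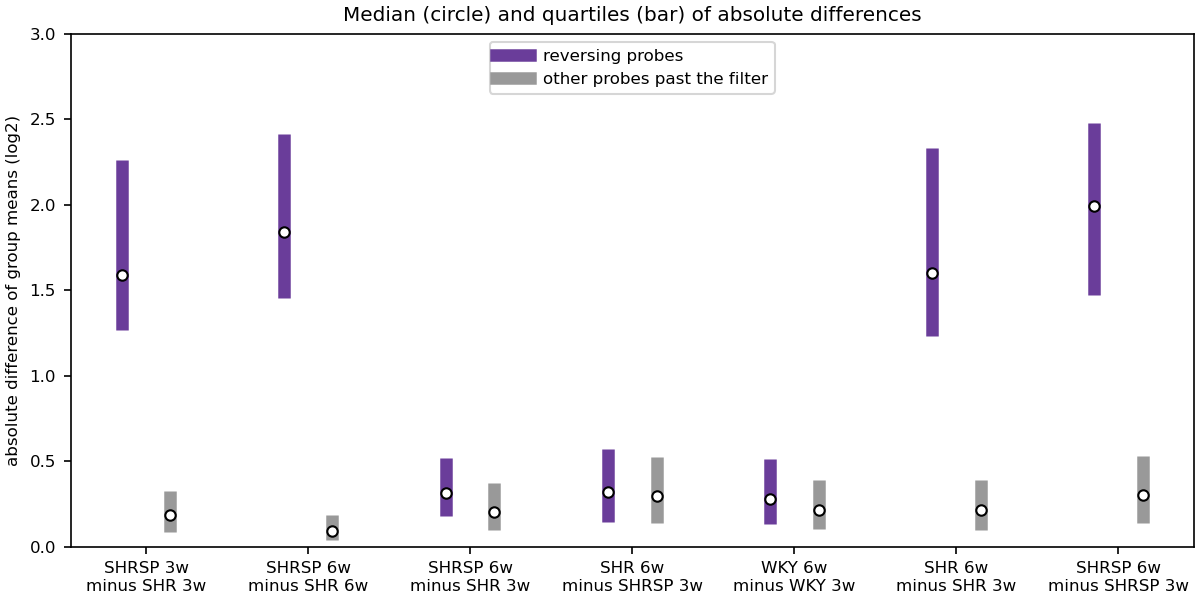
Median (circle) and quartiles (bar) of the absolute log2 difference between group means (vertical axis) for 7 pairs of groups (horizontal axis), for the 96 members in purple and the 20182 probes that do not meet the rule in grey. The members' medians are 0.31 and 0.32 for the pairs that cross label and age, against 1.60 and 1.99 for the same label at both ages.

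The change with age in WKY rats is the comparison whose group means use no array of the rule. It was tested with limma on all 18 arrays, so the spread behind its p also draws on the arrays that chose the members. A probe was called at a Benjamini-Hochberg adjusted p under 0.05 and a change beyond 1. Of 80 members tested, 2 were called (2.5%), both higher at 6 weeks, against 3.55% of all 20399 probes tested. Ryr1 read -7.23, -7.12 and -6.98 at 3 weeks, with no array well above background, and -5.18, -4.56 and -4.94 at 6 weeks. F2 read -1.37, -1.15 and -1.47 at 3 weeks and 0.36, -0.40 and 0.10 at 6 weeks. For both genes all 3 older arrays lay above all 3 younger ones. The log2 change was 2.22 as measured for Ryr1 (standard error 0.22, limma adjusted p = 1.13e-05) and 2.11 with its dim values lifted (limma adjusted p = 1.89e-07) and 1.35 for F2 (standard error 0.17, limma adjusted p = 7.29e-05). With slide as a block neither gene was called: the change was 1.36 for Ryr1 (limma adjusted p = 0.258) and 0.88 for F2 (limma adjusted p = 0.43), and 1 other member was called. With scan day as a block F2 changed by 1.09 and was not called (limma adjusted p = 0.114), while Ryr1 changed by 2.14 and was called (limma adjusted p = 0.0241), and with normexp Ryr1 changed by 0.71 and was not called. Over all settings the adjusted p ran from 1.89e-07 to 0.258 for Ryr1 and from 9.84e-06 to 0.43 for F2. Without WKY replicate 3 at 3 weeks 4 members were called (5%), against 3.97% of all probes. With normexp 1 was called (1.25%), against 1.47%, and with slide as a block 1 (1.25%), against 0.255%. With no limit on the change 25 were called (31.2%), against 32.2%.

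The other comparisons share arrays with the rule, so their counts are set beside the share over all probes and nothing is read from them. From 3 to 6 weeks, 82 of 91 members tested were called in SHRs (31 higher, 51 lower at 6 weeks), where 3.41% of all probes were, and 82 of 93 in SHRSP (50 higher, 32 lower), where 6.12% were. Against WKY rats at 3 weeks, 15 of 82 were called in SHRs (1.58% of all probes) and 64 of 90 in SHRSP (3.33%). Against WKY rats at 6 weeks, 67 of 88 were called in SHRs (4.24%) and 22 of 83 in SHRSP (4.01%). The comparisons against WKY rats at 1 age share the WKY arrays. With normexp the members called were 45 in SHRs and 50 in SHRSP from 3 to 6 weeks, 7 and 35 against WKY rats at 3 weeks, and 38 and 9 at 6 weeks. The shares of all probes called with normexp were, in the same order, 1.5% and 2.83%, 0.737% and 1.43%, and 1.95% and 1.73%.

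To see how far the pattern reaches beyond the members, the change of a strain with age was set against that of WKY rats over all probes, first by label and then across labels. By label, 680 of 20577 probes were called in SHRs (3.3%) and 1465 of 20682 in SHRSP (7.08%). From SHRs of 3 weeks to SHRSP of 6 weeks 618 of 20519 were called (3.01%), and from SHRSP of 3 weeks to SHRs of 6 weeks 1272 of 20714 (6.14%). With the members left out the 4 counts were 606 and 1380 by label, and 614 and 1266 across labels. The 4 contrasts share arrays with one another and with the rule, and no difference between the counts was tested. Members called were 74 of 93 and 85 of 95 by label, and 4 of 86 and 6 of 92 across labels. The members were chosen on these arrays, so their high counts by label follow in large part from the rule. Nothing is read from the member counts. With normexp the 4 counts were 398 and 691 by label, and 351 and 580 across labels. With array weights 966 probes were called from SHRs of 3 weeks to SHRSP of 6 weeks. With quantile normalization 836 were called from SHRSP of 3 weeks to SHRs of 6 weeks. Without SHRSP replicate 1 at 3 weeks the count from SHRSP of 3 weeks to SHRs of 6 weeks was 2046.

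Differences from WKY rats at 3 and 6 weeks use separate arrays, and their correlations across the 20182 probes that do not meet the rule were positive for each pairing of labels. They were r = 0.36 for SHRs with SHRs, 0.34 for SHRs of 3 weeks with SHRSP of 6 weeks, 0.27 for SHRSP of 3 weeks with SHRs of 6 weeks and 0.21 for SHRSP with SHRSP. With the 107 probes included they were 0.33, 0.38, 0.35 and 0.19, so the order of the pairings depends on probes chosen on these values.

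Slides and scan days could be compared only on arrays that had chosen the members, so the direction within them was largely fixed by the rule and is no separate support. On the slide that held 2 SHR and 2 SHRSP arrays of 3 weeks, all 96 members differed in the direction of the full set, 86 of them beyond 1. On the slide with 3 SHR arrays and 1 SHRSP array of 6 weeks, all 96 did, 93 of them beyond 1. Within the first scan day (3 SHR and 2 SHRSP arrays of 3 weeks) 91 of the 96 were beyond 1 in that direction, and within the second (3 SHR arrays and 1 SHRSP array of 6 weeks) 93 were. The slide and the day at 6 weeks hold a single SHRSP array. For 92 of the 96 members, chosen on these same arrays, the arrays of the strains had no overlap at either age, all with the order turned. Over all probes past the filter 6.64% had arrays apart at both ages in opposite order, and 0.527% met the rule.

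Positions in the rn4 assembly were known for all 96 members. Members within 1 Mb of the next on a chromosome formed 10 blocks with 33 probes, and 63 probes stood alone or on unplaced sequence. With normexp, or when every group had to be well above background, 4 blocks were found. In 5 of the 10 blocks all members had the same direction, and 9 held more than 1 gene or transcript. Among the 347 other probes past the filter in or within 1 Mb of the blocks, 15 differed by more than 0.5 at both ages with opposite signs and 0 with the same sign. Among the 20181 probes past the filter that are neither members nor of the genes left out, these counts were 212 and 87.

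On chromosome 10 a block from 15051356 to 15581857 held Haghl, Rgs11, Hba-a3 and an unnamed transcript beside the alpha globin genes. Haghl, Hba-a3 and the unnamed transcript (at least 2.29-fold at 3 weeks and at least 1.35-fold at 6 weeks) turned one way, and Rgs11 (at least 3.30-fold and at least 2.14-fold) the other. A second block on chromosome 10, from 92638563 to 92767715, held Prp2l1 (-3.05 and 3.70) between 2 further transcripts, 1 described as a predicted gene (-3.19 at 3 weeks, at least 8.09-fold at 6 weeks) and 1 as a proline-rich protein (at least 4.21-fold and at least 5.38-fold). All 3 turned the same way.

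The block on chromosome 3 from 148995080 to 149076267 joined Bpi (-1.69 at 3 weeks, higher in SHRSP at 6 weeks) and Lbp (1.90 at 3 weeks, at least 2.80-fold lower at 6 weeks), neighbours that belong to the same family of lipopolysaccharide-binding proteins, which turned opposite ways, with an unnamed transcript (1.23 and -1.01). On chromosome 1, between 83463520 and 85064093, lay Ryr1 (2.76 at 6 weeks, with both strains dim at 3 weeks), Zfp14 (-1.21 and 1.36) and a transcript described as ribosomal protein S16 of the small subunit (2.40 and -2.39). The S16 probe read -0.41, -0.39 and -0.22 in SHRs and 2.03, 2.09 and 2.04 in SHRSP at 3 weeks, and 1.91, 1.86 and 1.75 and -0.56, -0.55 and -0.56 at 6 weeks. Its arrays spread little within a group, and the high groups were SHRSP of 3 weeks and SHRs of 6 weeks.

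A pair of probes of Tnnt1 made a block of 1 gene on chromosome 1, at 68043171 to 68045142 (1.30 and -1.14 for the brighter, 1.39 and at least 2.16-fold for the other). On chromosome 11, from 80277150 to 80307689, Fetub, a plasma protein made in liver (1.04 and -1.56), lay beside an unnamed probe that turned the other way (at least 6.17-fold and at least 6.08-fold). RGD1563302 (at least 1.47-fold higher, then at least 1.51-fold lower) and Phf11b (-1.02 and 1.34) lay together on chromosome 15, from 38265843 to 38384702. A pair of probes for transcripts like Wdr36, a protein of ribosome assembly, lay next to each other on chromosome 18, at 25322205 to 25322453 (-1.32 and 1.68, -1.10 and 1.41). The last 2 blocks, on chromosome 14 with 7 probes (49143924 to 49821926) and on chromosome 9 with 5 (5489437 to 5887261), were made of the Discs large homolog 5-like family.

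Different probes of 1 gene did not always reverse together. For 11 of the member genes the array held 12 other probes, 7 of them past the filter. Of these 7, 3 showed the signs of the member probe: Fibin (0.80 and -1.59), LOC686921 (-1.75 and 0.39) and MGC116197 (-0.73 and 1.16), the last 2 of the multi-copy family. The other probe turned opposite ways to the member probe for Bbs1 (-0.53 and 0.78, member 1.81 and -1.22), Gemin7 (-0.48 and 0.25, member 1.60 and -1.58) and Zfp14 (0.74 and -0.59, member -1.21 and 1.36). Acyp2 showed -0.01 and -0.12 on its other probe, where the member probe had -1.34 and 1.23. For these 4 genes the reversal is a property of 1 probe and not of every probe of the gene.

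Markers of tissues that could be carried along with a kidney were looked at as lists. For such markers in bulk tissue, fewer cells of a type and less RNA per cell cannot be told apart. For liver, 1 of 5 genes passed the filter, Fgb, a fibrinogen chain and the most abundant, and Cyp3a2 and Tat were not well above background on any array. SHRSP minus SHR was -1.09 at 3 weeks and 0.17 at 6 weeks for Fgb. The summed scaled signal of the 5 was 0.256 to 0.282 in SHRs and 0.129 to 0.130 in SHRSP at 3 weeks, and 0.0976 to 0.115 and 0.109 to 0.138 at 6 weeks. Alb and Apoa1 were well above background on 3 and 5 of the 18 arrays. Their means in SHRs at 3 weeks were -7.15 and -7.44, against -2.03 for Fgb, so the sum rests mainly on Fgb. For skeletal muscle, 1 of 5 passed, Acta1, the most abundant (0.88 and -0.24). The sum over the 5 muscle genes was 0.0273 to 0.0459 in SHRs and 0.0492 to 0.0728 in SHRSP at 3 weeks, and 0.0271 to 0.0458 and 0.0275 to 0.0408 at 6 weeks. For blood, Hba-a1, Hbb and Alas2 all passed, with Hba-a1 the most abundant and sums of 87.1 to 123 in SHRs and 69.1 to 121 in SHRSP at 3 weeks, and 63.7 to 74.0 and 45.4 to 81.5 at 6 weeks.

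For the adrenal gland, 2 of 6 markers passed, with Th the most abundant, and Cyp11b2, Star and Dbh were not well above background on any array. For fat, Ucp1, the most abundant, and Adipoq passed, and Plin1 and Lep were not well above background on any array. For leukocytes, Ptprc, Itgam and Cd68, the most abundant, passed, and Cd3e and Ms4a1 were not well above background on any array. The median difference at 3 and 6 weeks was 0.09 and 0.07 for the adrenal markers past the filter, -0.28 and -0.44 for fat, and 0.02 and -0.07 for the 3 leukocyte genes past it. None of these genes met the rule, and the part of such tissues in the members' values was not tested.

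Pathway lists of the kidney and of daily rhythm held few or no members. Of 16 clock genes 14 passed the filter, 2 had opposite signs at the 2 ages (Clock and Bhlhe40), and 0 had a reversing probe; Npas2 differed by -1.58 and -0.84 and Dbp by 0.88 and 1.28. Among 18 cytochrome P450 genes 17 passed, 4 were beyond 1 at 3 weeks and 0 at 6 weeks. All 17 genes of tubule transport passed, with 0 beyond 1 at either age, and so did 16 of 18 interferon and MHC class I genes and 7 of 10 immediate early genes, again with 0 beyond 1. Opposite signs of any size were held by 9 of the 17 cytochrome P450 genes that passed and 10 of the 17 of tubule transport. They were held by 11 of 17 glyoxalase and glutathione genes, 6 of 16 interferon and MHC class I genes and 3 of 7 immediate early genes. The medians at 3 and 6 weeks were 0.55 and 0.20 for the clock, 0.31 and -0.02 for cytochrome P450, 0.20 and -0.04 for tubule transport, -0.22 and -0.16 for interferon and MHC class I, -0.23 and -0.20 for immediate early genes, and 0.13 and -0.04 for glyoxalase and glutathione enzymes. Over all probes past the filter they were 0.10 and 0.00.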

How the data were processed

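RNA of rat kidneys was measured on 18 one-colour Agilent 4x44K arrays, 3 for each of 3 strains at 2 ages. The authors deposited the scanner output of Agilent Feature Extraction 10.5.1.1, as named in the submitters' processing notes, and the value used, the processed signal, is a background-corrected intensity per the file headers. Its log2 was averaged over the spots of a probe (1390 of 30367 probes had several), and the log2 of the 75th percentile of spots well above background was subtracted, a percentile between 1857 and 3996 on these arrays. Control spots and 198 to 480 spots marked as unusable on each array were left out, 8 probes had no usable spot on some array, and 30359 probes were fitted. Among spots well above background the dimmest on each array read 12.5 to 35.9.

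Members were probes beyond a log2 difference of 1 between SHRSP and SHRs at both ages, with opposite signs, and well above background throughout 1 or more of the 4 groups. Probes of 9 genes were left out by the rule. The members and the gene lists were chosen with earlier results of these data known. Differences between SHRSP and SHRs have no test. Tests used limma 3.58.1 in R 4.3.3 on all 18 arrays and 6 groups. A call needed a Benjamini-Hochberg adjusted p under 0.05 over all probes tested and a log2 change beyond 1. Testing a probe required it to be well above background throughout 1 or more of the groups compared. Tables and plots were made in Python 3.11.15, and the test was checked on simulated data.

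Symbols came from a RefSeq table of the GRCr8 assembly, used for names only. By accession 17674 probes matched, by gene name 2509 and by synonym 697, and 9479 had no symbol. Positions follow the array annotation, in rn4. Where a gene had several probes, each was kept as measured, and in gene lists the probe of highest signal stood for the gene. The genes described with every array were the 6 named genes in each direction with the largest value of the smaller difference, and up to 20 more were named in each direction. Further members, and genes in blocks, were named after their values were seen. Members at most 1 Mb apart formed a block. Lists of markers (kidney, liver, adrenal gland, skeletal muscle, fat, blood, leukocytes) and of genes (glyoxalase and glutathione, cytochrome P450, clock, immediate early, interferon and MHC class I, tubule transport) were examined. Some kidney and leukocyte markers are not reported here.

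Alternatives were other scaling (quantile normalization, or the 75th percentile of every probe or of those bright on each array), background correction by normexp, the series matrix values, marked spots kept, low signals raised, other filters and limits, blocks for replicate number, slide and scan day, array weights, only the arrays compared, and each replicate left out. Leaving out the multi-copy family was chosen after seeing the data, as were the limits other than 1 and 2. Replicates of a group correlated with r from 0.992 to 0.998 across 18400 probes.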

Additional observations from a re-analysis of the deposited data

Results flagged for a closer look

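The change with age beyond that of WKY rats was tested in limma for each strain label, and the test of this difference between groups passed for 680 probes in the arrays labelled SHR and for 1465 probes in the arrays labelled SHRSP. Both counts include members, which were selected on values of the same arrays.

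In 92 of the 96 member probes the arrays of SHRSP and SHRs did not overlap at either age and lay in opposite order at 3 and 6 weeks, where 6.64% of all probes past the filter did so and 0.527% met the rule. This difference was not tested, and it follows from the choice of members.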

How the results depend on the processing

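The main values were 96 reversing probes, 7 of the same sign, a correlation of -0.39 between the differences at 3 and 6 weeks, and 10 blocks. Members called were 2 for age in WKY rats, 82 for age in SHRs, 82 for age in SHRSP, 15 (SHRs) and 64 (SHRSP) against WKY rats at 3 weeks, and 67 and 22 at 6 weeks. Over all probes, changes beyond those of WKY rats numbered 680 (SHRs), 1465 (SHRSP), 618 (SHRs of 3 weeks to SHRSP of 6 weeks) and 1272 (SHRSP of 3 weeks to SHRs of 6 weeks). Values that moved follow in this order.

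With normexp they were 38, 2 and 4 blocks, then 1, 45, 50, 7, 35, 38 and 9 members called, and 398, 691, 351 and 580 probes. With every group compared well above background they were 47 reversing probes, -0.28, 4 blocks, and 1, 46, 45, 9, 37, 40 and 14 members called (2.58%, 2.31%, 4.76%, 1.16%, 2.41%, 3.12% and 2.93% of all probes tested). Fewer probes pass that filter, and the cause of the normexp changes was not tested. With no filter 31 probes kept their sign and the correlation was -0.23. With a limit of 2, 25 probes reversed and 0 kept their sign. With no limit on the change, 25 members were called in WKY rats (31.2%, 32.2% of all probes) and 27 in SHRs against WKY rats at 3 weeks (32.9%, 8.07% of all probes), and 1898, 5364, 1706 and 4478 probes over all. Without the multi-copy family, chosen after seeing the data, 40 members were called in SHRs at 6 weeks and 37 in SHRSP at 3 weeks against WKY rats, since fewer members were counted. With array weights 966 probes were called from SHRs of 3 weeks to SHRSP of 6 weeks, and with quantile normalization 836 from SHRSP of 3 weeks to SHRs of 6 weeks; the cause was not tested. With quantile normalization the latter split into 191 higher and 645 lower (70 and 1202 in the main setting), and the change in SHRSP into 275 and 804 (145 and 1320). No scaling moved the median of all probes by more than 0.1 (at most -0.09). A slide block could not be fitted for some comparisons, and with it 1 member was called in WKY rats. The difference of Irs3 at 6 weeks was 0.053 with normexp and 0.18 with low signals raised, against -1.30, and the cause was not tested. Of the differences of named genes in all settings, 1656 kept their value within the replicate spread, 90 moved and 2 reversed.

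With a replicate block, members called were 2, 82, 81, 15, 65, 67 and 22, and 669, 1465, 603 and 1266 probes over all. Replicate numbers did not pair samples: residuals of arrays with the same number had a median r of 0.03 over 45 pairs and the others 0.00 over 90 pairs.

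With each replicate left out in turn, reversing probes ran from 91 to 103, same-sign probes from 6 to 11 (11 without SHR replicate 3 or SHRSP replicate 1 at 3 weeks, or SHRSP replicate 2 at 6 weeks), the correlation from -0.44 to -0.30 (-0.18 to -0.07 without the reversing probes), and blocks from 9 to 11. Members called ran from 2 to 4 for age in WKY rats (4 without WKY replicate 3 at 3 weeks), 80 to 84 in SHRs, 80 to 83 in SHRSP, 14 to 18 and 63 to 66 against WKY rats at 3 weeks, and 65 to 68 and 20 to 22 at 6 weeks. Over all probes the counts ran from 566 to 902, 1224 to 2142, 497 to 819, and 1013 to 2046 (2046 without SHRSP replicate 1 at 3 weeks). The spread of a correlation was its jackknife standard error, 0.108 for the main one. Dim signals limit the folds, which are lower bounds where a group had no array well above background.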
